A study of Mus musculus with 8 samples.

Results

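Endothelial nuclei of the mouse brain were examined in single-nucleus RNA libraries from the hippocampus and the caudate putamen at 3 and 21 months of age. A nucleus was counted as endothelial when the unique molecular identifiers (UMIs, which count captured RNA molecules) of Flt1, Cldn5, Mecom and Ptprb summed to at least 8 and at least 3 of these 4 genes were detected. Only barcodes with at least 500 detected genes and fewer than 15000 UMIs were considered. The rule found 856 endothelial nuclei among 82753 nuclei within those limits, from 109826 barcodes in all. The 4 groups were hippocampus at 3 months, hippocampus at 21 months, caudate putamen at 3 months and caudate putamen at 21 months, with 2 libraries each. All mice were of the C57BL/6JN strain, and no treatment or engineered allele was given for any group. Tissue came from punches of the left hemisphere (the anterior part of the hippocampus), and nuclei were sorted on Hoechst DNA stain. Each library was a mixture, made at the sort, of nuclei from a male and a female mouse of 1 age, in equal numbers. The labels do not tie a library of 1 region to a library of the other, so p-values measure the spread between these pooled libraries. If the regions of 1 age shared mice, their libraries would not be independent replicates in the age tests. CPM below stands for counts-per-million of a gene among the UMIs of a library's endothelial nuclei. It is not scaled by gene length, so it compares libraries for 1 gene and not genes with each other.

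Endothelial cells line every blood vessel, and in the brain they form the blood-brain barrier together with pericytes and astrocyte endfeet. Tight junctions, of which claudin-5 (Cldn5) is the main sealing protein, close the space between neighbouring cells. Nutrients reach the brain through dedicated transporters such as Slc2a1 for glucose, while efflux pumps such as Abcb1a return lipophilic compounds to the blood. The lining changes along the vascular tree: arterial cells express Bmx, Gkn3 and Fbln5, venous cells express Vwf, Vcam1 and Slc38a5, and the capillary cells between them carry most of the transporters. ETS-family transcription factors such as Erg, Fli1 and Ets1 are known regulators of endothelial genes, and they bind DNA around a GGAA core.

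Promoter sequences are shown for Flt1 and Cldn5, which entered the rule, and for Adgrl4 and Tie1, which did not and were among the genes of highest ratio between endothelial and other nuclei. Each is the stretch of 250 bases before the RefSeq start (GRCm38.p6), 5′ to 3′ on the gene's strand, and capitals mark AGGAAG or CGGAAG or their reverse complements, forms with the GGAAG letters of the ETS core. The motif forms and the printed promoters were chosen after the sequences had been viewed.
Flt1 (chr5:147726012-147726261, minus strand): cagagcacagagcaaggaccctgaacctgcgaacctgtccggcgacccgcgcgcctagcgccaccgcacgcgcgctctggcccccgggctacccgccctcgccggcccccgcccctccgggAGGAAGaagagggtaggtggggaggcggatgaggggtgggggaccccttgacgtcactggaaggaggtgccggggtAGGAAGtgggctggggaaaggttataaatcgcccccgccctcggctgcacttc
Cldn5 (chr16:18776597-18776846, plus strand): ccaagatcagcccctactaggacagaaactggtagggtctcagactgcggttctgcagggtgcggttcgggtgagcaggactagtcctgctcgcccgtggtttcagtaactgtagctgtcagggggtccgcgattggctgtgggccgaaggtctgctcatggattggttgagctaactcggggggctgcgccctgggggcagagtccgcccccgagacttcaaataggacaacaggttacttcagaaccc
Adgrl4 (chr3:151437632-151437881, plus strand): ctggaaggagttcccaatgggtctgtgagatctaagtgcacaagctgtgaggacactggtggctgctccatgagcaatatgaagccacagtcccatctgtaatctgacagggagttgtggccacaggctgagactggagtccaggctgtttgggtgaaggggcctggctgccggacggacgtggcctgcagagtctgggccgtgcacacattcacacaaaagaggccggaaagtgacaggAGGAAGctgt
Tie1 (chr4:118489850-118490099, minus strand): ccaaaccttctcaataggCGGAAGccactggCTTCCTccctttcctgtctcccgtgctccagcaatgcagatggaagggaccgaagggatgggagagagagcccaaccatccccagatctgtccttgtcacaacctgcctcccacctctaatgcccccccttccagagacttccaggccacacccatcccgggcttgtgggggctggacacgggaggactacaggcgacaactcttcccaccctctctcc
The windows of Flt1 and Tie1 each held 2 matches, that of Adgrl4 held 1 and that of Cldn5 held 0. Among 27025 promoter windows of the same length, 39.0% held a match to either form, and 37 of the 72 windows found for the 100 genes of highest ratio in endothelial nuclei did (51.4%). Of the 3 rule genes with a window, Flt1 held a match and Cldn5 and Mecom did not (33.3%), and of 13 windows found for the endothelial markers outside the rule 9 did (69.2%). AGGAAG alone was in 44.4% of those 72 windows against 29.2% of all, and CGGAAG alone in 9.72% against 13.8%. Letters in a window describe the sequence and say nothing of whether a factor was bound.

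The 4 genes of the rule were present at high levels in every library, which the rule itself ensures. Flt1 (VEGF receptor 1; GRCm38 chr5:147561604-147726011, minus strand) was at 4004 and 3870.1 CPM in hippocampus at 3 months, 4055 and 4129.6 there at 21 months, 4716 and 4512 in caudate putamen at 3 months and 3381 and 3329.8 at 21 months. Cldn5 (chr16:18776847-18778262, plus strand) was at 573 and 702 CPM in hippocampus at 3 months, 736 and 835 there at 21 months, 919 and 735 in caudate putamen at 3 months and 781 and 603 at 21 months. Neither gene set a library apart. Flt1 lay within 3329.8 to 4716 CPM and Cldn5 within 573 to 919 CPM over the 8 libraries. Mecom, a zinc-finger transcription factor gene at chr3:29951296-30548008, was at 1514 to 2418 CPM, and Ptprb, the gene of the vascular phosphatase VE-PTP at chr10:116275523-116389535, was at 962 to 1471 CPM. In the other nuclei the means were 4.43 CPM for Flt1, 1.65 for Cldn5, 6.61 for Mecom and 2.79 for Ptprb. All 4 genes were detected in 605 of the endothelial nuclei and 3 of them in the other 251. Cldn5, whose gene body is the shortest of the 4, was the gene most often missing, from 182 nuclei, whereas Flt1 was missing from 2.

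The endothelial label was checked with 16 markers outside the rule, among them the adhesion molecule Pecam1, VE-cadherin (Cdh5), the receptor tyrosine kinase Tie1 and the organic anion transporter Slco1a4. All 16 were higher in endothelial than in other nuclei, with summed levels of 9405 to 13636 CPM against 25.2 to 55.8 CPM. Pecam1 was at 533 and 487 CPM in hippocampus at 3 months, 608 and 514 there at 21 months, 611 and 607 in caudate putamen at 3 months and 544 and 427 at 21 months, against a mean of 3.39 in the other nuclei. Slco1a4 was at 1822 and 1853 CPM in hippocampus at 3 months, 2179 and 2605 there at 21 months, 2899.6 and 2582 in caudate putamen at 3 months and 2314 and 2072 at 21 months, against 2.55. Tie1 was at 153 and 135 CPM in hippocampus at 3 months, 152 and 140.2 there at 21 months, 213 and 173 in caudate putamen at 3 months and 126 and 159 at 21 months, against 0.178. For these markers the lowest endothelial library lay far above the other nuclei, and the label held in all 8 libraries. Since the nuclei were picked by genes that accompany these markers, no test is given. Nuclei just inside and just outside the threshold differed in the same markers. The 22 members with 8 or 9 UMIs of the rule genes carried the 16 markers at 5133 CPM, 55 nuclei with 6 or 7 such UMIs at 934 CPM, and 125 nuclei with at least 8 UMIs but fewer than 3 genes at 705 CPM. Over all members the level was 10509 CPM, and over the 4564 nuclei with 1 to 5 UMIs of the rule genes it was 61.8 CPM.

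The genes with the highest ratio of endothelial to other nuclei were led by Dipk2b at 175 ± 44.9 CPM (SD, n = 8 libraries) against 0.0723 in the other nuclei, followed by Adgrl4 at 2163 ± 417 CPM (SD, n = 8 libraries) against 1.31 in the other nuclei. Adgrl4 encodes an adhesion G-protein-coupled receptor of blood vessels. Next came Tbx1 at 83.1 ± 37.1 CPM (SD, n = 8 libraries) against 0.0620 in the other nuclei, a T-box transcription factor gene, and Gm9946, annotated as a long intergenic non-coding RNA (ENSMUSG00000054488, chr6:117559697-117572329). Both return below, Tbx1 in the comparison of regions and Gm9946 in the comparison of ages. Sox17 and Zfp366, also transcription factor genes, and Fendrr, a non-coding RNA gene, were among the first 10 by this ratio. Genes of a high level but a lower ratio included Ptprg, a receptor-type phosphatase, at 4869.6 ± 563 CPM (SD, n = 8 libraries) against 218 in the other nuclei, and Bsg, which encodes the surface protein basigin, at 2135 ± 490.1 CPM (SD, n = 8 libraries) against 35.6. All 17 barrier transporters on the list were higher in endothelial nuclei, with a median ratio of 36.1. So were all 14 arterial genes (median ratio 43.9), all 24 MHC class I and interferon genes (39.4) and all 20 endothelial transcription factors (38.5). For junction genes the median ratio was 6.73, with 14 of 15 higher, and several of those, such as Magi1 and Ctnnd1, serve junctions in other cell types too. Genes of angiogenic tip cells were near 0: Apln was detected in 0.467%, Esm1 in 0.117% and Plvap, which marks fenestrated endothelium, in 0.935% of the endothelial nuclei.

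Summed markers of neurons, astrocytes, oligodendrocytes and their precursors were lower in endothelial than in other nuclei of all 8 libraries, and those of pericytes and smooth muscle were higher in all 8. Fibroblast markers were higher in 6 of 8 libraries, at 4.56 to 321 CPM against 17.4 to 110 CPM, with 3 of 8 genes lower in endothelial nuclei. The summed level of 8 neuronal markers was 2554 to 8623 CPM in endothelial nuclei and 15449 to 23174 CPM in the other nuclei, with all 8 genes lower in the former. Astrocyte markers were at 1013 to 4607 CPM against 2247 to 7063 CPM, with 6 of 8 lower. Oligodendrocyte markers were at 416 to 1533 CPM against 1269 to 2817 CPM and microglial markers at 98.5 to 351 CPM against 130 to 286 CPM, with Tmem119 at 0 in endothelial nuclei. Pericyte markers went the other way, at 557 to 2155 CPM against 38.4 to 122 CPM, with none of 8 lower in endothelial nuclei. In 55 of the 856 nuclei their UMIs were at least as many as those of the rule genes. Smooth muscle markers summed to 34.2 to 88.5 CPM against 5.69 to 12.2 CPM, although 3 of the 6 genes were lower in endothelial nuclei. Cnn1 was at 0 there, as were the T cell markers Cd3d and Cd8a. In all, 207 of the 856 nuclei (13.0% to 29.2% per library) held at least as many UMIs of another class's markers as of the rule genes. The classes counted were neurons, astrocytes, oligodendrocytes and their precursors, microglia, pericytes, smooth muscle and fibroblasts. Markers of dentate granule neurons, medium spiny neurons, ependymal and choroid plexus cells and T cells were not used. Those of dentate granule and medium spiny neurons reached the UMIs of the rule genes in 34 and 15 of the 856 nuclei. The 207 are the mixed nuclei, or nuclei that carried another class's markers, of later paragraphs. They may hold RNA of more than a single nucleus. No doublet caller was run. Some of these sums differed between ages within a region. In caudate putamen endothelial nuclei the neuronal sum was 2988 and 4143 CPM at 3 months and 4274 and 8623 CPM at 21 months. The sum of oligodendrocyte precursor markers there was 95.8 and 150 CPM at 3 months and 529 and 578 CPM at 21 months. In hippocampus the ages overlapped for both of these sums, whereas that of dentate granule neuron markers was 1370 and 1637 CPM at 3 months and 907 and 1262 CPM at 21 months. The part of such RNA in the age comparisons was not tested. Endothelial nuclei held medians of 2811.5 to 4219 UMIs per library against 6196 to 7838 in the other nuclei, and 171204 to 1082025 UMIs per library in all. In the smallest libraries the lowest CPM values given below rest on very few UMIs. Those of Icam1, Mgp, Sox18, Notum and Fbln5 are examples. Libraries shared no endothelial barcode, whereas each pair of libraries shared 21 to 146 of all barcodes. Among the endothelial nuclei whose sex could be called from sex-linked genes, 45% to 72.7% per library were female.

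**Figure D1:**
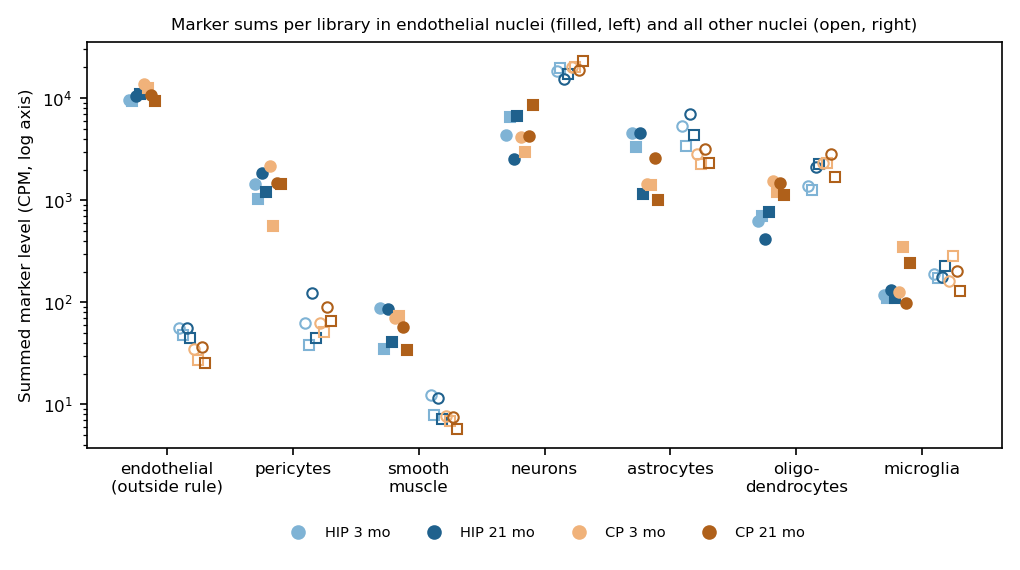
Summed CPM of marker lists (y axis, logarithmic) in endothelial nuclei (filled) and other nuclei (open) of each of the 8 libraries, for 7 cell classes. The endothelial markers outside the rule lie at 9405 to 13636 CPM in endothelial nuclei and at 25.2 to 55.8 CPM in the others, and the sums of pericyte and smooth muscle markers also lie higher in endothelial nuclei.

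Endothelial nuclei made up a small and uneven share of each library. In hippocampus they were 2.10% and 0.925% of the nuclei at 3 months (replicates 1 and 2, 182 and 137 nuclei) and 2.78% and 0.710% at 21 months (198 and 37 nuclei). In caudate putamen they were 0.936% and 0.537% at 3 months (82 and 54 nuclei) and 1.07% and 0.253% at 21 months (124 and 42 nuclei). In both regions the replicates of a group were farther apart than the means of the 2 ages, and replicate 1 was the higher library in every group. Exact 95% binomial intervals, which cover counting error only, did not overlap between the replicates of any group: in hippocampus at 21 months they were 2.41% to 3.18% and 0.500% to 0.977%. Group means were 1.51% ± 0.829 and 1.74% ± 1.46 in hippocampus at 3 and 21 months and 0.737% ± 0.282 and 0.664% ± 0.581 in caudate putamen (SD, n = 2 each). Neither age nor region passed a test. Averaged over regions, the share at 21 months was higher by 0.0797 percentage points (two-sided exact permutation test within region, p = 0.944, adjusted p = 0.944 over 8 comparisons). That difference changed sign without any 1 of 4 libraries, with a range of -0.437 to 0.596 points when 1 library was left out. The caudate putamen was 0.927 points below the hippocampus (exact permutation within age, p = 0.222, adjusted p = 0.741). With 1 library left out, this difference ran from -1.44 to -0.410 points. The smallest p that these 36 arrangements allow is 0.0556, so the design cannot reach 0.05 for such a value. A share of sorted nuclei does not separate fewer endothelial cells from less endothelial RNA per nucleus. Nuclei were also thinned to 2000 UMIs each, with at least 3 UMIs and 2 of the rule genes then required, and 5873 nuclei below that depth were left out (255 to 1630 per library). The shares then ran from 0.234% to 2.75%, and replicate 1 was again the higher in each group.

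**Figure D2:**
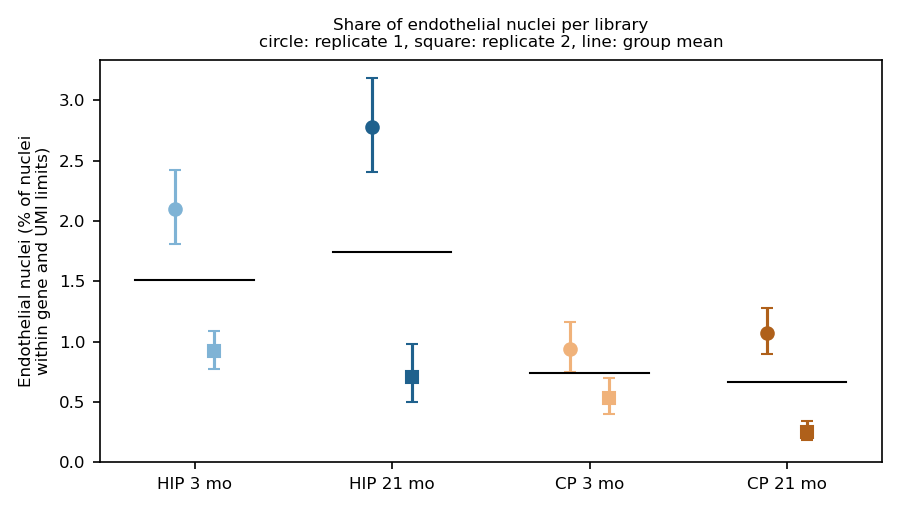
Percentage of nuclei counted as endothelial (y axis) in each library by group (x axis), with exact 95% binomial intervals, circles for replicate 1, squares for replicate 2 and a line at the group mean. Replicate 1 lies above replicate 2 in all 4 groups, by 2.78% against 0.710% in hippocampus at 21 months.

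Within the endothelial nuclei, the levels of arterial, capillary and venous genes differed between nuclei with and without a UMI of a single segment gene. Nuclei with at least 1 UMI of Bmx, an arterial kinase gene, were 92 of 856 (10.7%), those with Slc38a5, a venous and capillary amino acid transporter gene, were 84 (9.81%), and those with Vwf, the gene of von Willebrand factor, were 263 (30.7%). The sums below pool nuclei over libraries and carry no test, since a nucleus is not a replicate. In Bmx-positive nuclei 11 of 13 arterial genes were higher than in the rest, against 0 of 7 capillary and 4 of 14 venous genes. Counted by library, 9 of the 13 arterial genes were higher in more than 50% of the libraries compared, with 0 capillary and 3 venous genes. Fbln5, an elastic fibre gene, was at 208 against 9.63 CPM in nuclei with and without Bmx, Gkn3 at 50.6 against 5.67 CPM and Mgp, a matrix Gla protein gene, at 198 against 24.4 CPM. Library by library, Fbln5 and Mgp were higher in the Bmx-positive nuclei in 5 of 7 libraries compared and Gkn3 in 4 of 7. Replicate 1 of hippocampus gave 29 Bmx-positive nuclei at 3 months and 32 at 21 months, and each other library gave 2 to 11. The pooled sums therefore weigh hippocampus more, and the part of region in them was not tested. Going the other way were the capillary carbonic anhydrase Car4, at 111 against 271 CPM, Cldn5 itself, at 406 against 759.7 CPM, and Cxcl12, listed as arterial, at 576 against 1302 CPM. The inflammatory receptor gene Il1r1 was at 81.7 against 271 CPM, and Slc38a5 was at 0 in Bmx-positive nuclei. Car4, Cldn5 and Il1r1 were higher in Bmx-positive nuclei in 0 of 7 libraries and Cxcl12 in 1. Vcam1, listed as venous, was at 134 against 59.8 CPM and higher in Bmx-positive nuclei in 5 of 7. In Slc38a5-positive nuclei the arterial and venous lists changed places, with 11 of 13 venous, 6 of 7 capillary and 2 of 14 arterial genes higher in the pooled sums. Of these 11 venous genes, Ackr1 and Lrg1 rested on 2 UMIs each and Lcn2 on 7, and 7 of the 13 were higher in more than 50% of the libraries compared, as were 5 of 7 capillary and 0 of 14 arterial genes. There Il1r1 was at 594 against 204 CPM, the adhesion molecule Vcam1 at 169 against 56.9 CPM, Vwf at 295 against 142 CPM and the arterial semaphorin Sema3g at 4.50 against 31.1 CPM, with Bmx at 0. Vwf was higher in the Slc38a5-positive nuclei in 7 of 8 libraries, Il1r1 in 5, Vcam1 in 4 and Sema3g in 1. Vwf-positive nuclei had 12 of 13 venous and 9 of 14 arterial genes higher and 0 of 7 capillary genes, and by library 9 venous and 3 arterial genes were higher in more than 50%. Positive nuclei were somewhat deeper than the rest, with medians of 3723 against 3473 UMIs for Bmx, 4205.5 against 3444 for Slc38a5 and 3787 against 3404 for Vwf. The part of depth was not tested.

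**Figure D3:**
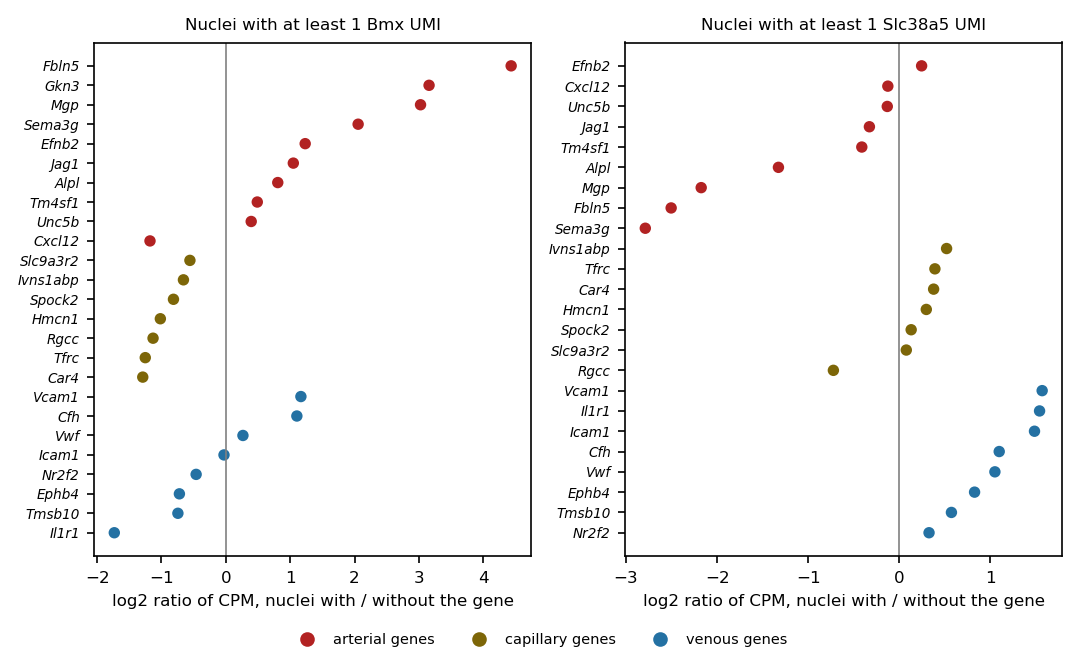
On the x axis, log2 ratio of pooled CPM between endothelial nuclei with and without a UMI of Bmx or of Slc38a5, for arterial, capillary and venous genes with at least 10 UMIs in the positive nuclei or at least 20 CPM in the rest (y axis). Arterial genes such as Fbln5 and Gkn3 lie above 0 for Bmx, while Il1r1 and most capillary genes lie above 0 for Slc38a5 and Vcam1 lies above 0 for both.

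With age, 5 genes rose and 1 fell in endothelial nuclei when both regions were averaged (edgeR's quasi-likelihood test with Benjamini-Hochberg adjustment). These 6 were 0.0724% of the 8292 genes tested (0.0603% higher and 0.0121% lower), and 495 genes were at an unadjusted p under 0.05. Ntn4, which encodes netrin-4, a secreted protein of the vascular basement membrane, was at 39.7 and 27.9 CPM in hippocampus at 3 months, 86.9 and 105 there at 21 months, 38.2 and 31.9 in caudate putamen at 3 months and 146 and 85.4 at 21 months. The 4 libraries at 21 months all lay above the 4 at 3 months, at 106 ± 28.0 against 34.4 ± 5.50 CPM (SD, n = 4 libraries each; log2 1.61, SE 0.25, adjusted p = 0.0204). Alpl, the gene of tissue-nonspecific alkaline phosphatase and a known arterial and capillary marker in brain, was at 31.8 and 22.0 CPM in hippocampus at 3 months, 75.8 and 75.9 there at 21 months, 57.3 and 31.9 in caudate putamen at 3 months and 141 and 137 at 21 months. Its levels also did not overlap between ages (log2 1.53, SE 0.24, adjusted p = 0.0204), and it was the 1 of 11 arterial genes tested that passed, with 7 of the 11 above 0. Gm9946, the non-coding RNA named above, was at 54.4 and 42.6 CPM in hippocampus at 3 months, 176 and 134 there at 21 months, 139 and 132 in caudate putamen at 3 months and 236 and 194 at 21 months. It was higher at 21 months in both regions (log2 1.21 by age, SE 0.18, adjusted p = 0.0204). At each age it was lower in hippocampus than in caudate putamen. Rasgrf2, an exchange factor for Ras and Rac, was at 76.0 and 61.7 CPM in hippocampus at 3 months, 221 and 187 there at 21 months, 24.5 and 18.2 in caudate putamen at 3 months and 62.1 and 39.8 at 21 months. The ages were apart in each region but not across regions (log2 1.45, SE 0.25, adjusted p = 0.0377). The other nuclei held 88.2 to 136 CPM of Rasgrf2 in hippocampus, where both young endothelial libraries were below them (76.0 and 61.7 against 113 and 136 CPM), and 7.06 to 18.5 CPM in caudate putamen. In microglial-marker nuclei, chosen for comparison as described below, it was at 33.0 and 25.5 CPM at 3 months and 33.3 and 32.0 CPM at 21 months in hippocampus. In caudate putamen those nuclei were also higher at 21 months, at 30.6 and 28.7 CPM against 11.2 and 5.00 CPM at 3 months. Cdk19, a kinase of the Mediator complex, was at 259 and 214 CPM in hippocampus at 3 months, 465 and 485 there at 21 months, 251 and 182 in caudate putamen at 3 months and 456 and 376 at 21 months. Every library at 21 months was above every library at 3 months (log2 0.98, SE 0.16, adjusted p = 0.0204), and the other nuclei held 251 CPM. Cdkn1a, which encodes the cell-cycle inhibitor p21 and is often used as a mark of senescent cells, was the gene that fell; it was at 126 and 144 CPM in hippocampus at 3 months, 71.2 and 35.0 there at 21 months, 142 and 114 in caudate putamen at 3 months and 51.4 and 34.2 at 21 months. All 4 libraries at 21 months were below all 4 at 3 months (log2 -1.31, SE 0.23, adjusted p = 0.0434). Antisense transcripts are annotated over Ntn4, Cdk19 and Cdkn1a, and whether strand was used in counting is not stated. Reads of such partners therefore cannot be told apart. DESeq2 called 0 genes in this comparison. Leaving out 1 library at a time gave 0 calls without hippocampus 3 months replicate 2 or caudate putamen 3 months replicate 1, 1 without caudate putamen 3 months replicate 2, 2 without caudate putamen 21 months replicate 1 and 17 without hippocampus 21 months replicate 2. None of the 6 named genes was among the calls without caudate putamen 3 months replicate 2 or caudate putamen 21 months replicate 1.

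A test restricted to the 5472 genes at least as high in endothelial as in other nuclei called 48 (0.877%, with 20 higher, 0.365%, and 28 lower, 0.512%), among them all 6 above. With DESeq2 in its place the number was 12, all of them among the 48. Of the 48, Cdk19, Lypd1 and Rasgrf2 had a mean below that of the other nuclei at 3 months (227 against 228, 11.3 against 21.7 and 45.1 against 68.1 CPM) and above it at 21 months. Their entry to this test is therefore not independent of their age difference. The genes taken from it here were named after their values were seen, outside the rule for named genes, and each log2 change is from the fit over all genes. Edn1, the gene of the vasoconstrictor endothelin-1, was at 64.6 and 29.4 CPM in hippocampus at 3 months, 97.0 and 111 there at 21 months, 128 and 91.2 in caudate putamen at 3 months and 248 and 137 at 21 months. In each region the older libraries were the higher ones (log2 0.97, SE 0.26, adjusted p = 0.0134 in the restricted test and 0.300 over all genes). Tgfb2, a TGF-beta ligand gene, was at 88.5 and 98.4 CPM in hippocampus at 3 months, 162 and 239 there at 21 months, 109 and 146 in caudate putamen at 3 months and 244 and 148 at 21 months. The ages did not overlap in either region, although the nearest libraries of the caudate putamen nearly met (log2 0.88, adjusted p = 0.00500 in the restricted test and 0.187 over all genes). Fmo2, a flavin monooxygenase gene, was at 17.0 to 59.3 CPM at 3 months and 62.6 to 87.6 CPM at 21 months (log2 1.39, adjusted p = 0.00299 in the restricted test and 0.111 over all genes). Antisense transcripts are annotated over Edn1, Tgfb2 and Lypd1, and over Cebpd, Icam1, Dusp1, Dnaja1, Slco2b1 and Ivns1abp, named next. Other genes given further on, Ankrd37 among them, also have such partners. The counts of the MHC genes H2-Q6 and H2-Q7, also called higher, are uncertain because these paralogs are nearly identical. Without caudate putamen 21 months replicate 1 the log2 change of H2-Q7 was -0.08, so its direction rests on that library. Without hippocampus 21 months replicate 1 that of H2-Q6 was 0.05, against 3.27 with all libraries. Among the genes lower at 21 months was Klf2, a transcription factor gene induced by blood flow, at 567 and 392 CPM in hippocampus at 3 months, 287 and 374 there at 21 months, 420.1 and 566 in caudate putamen at 3 months and 233 and 256 at 21 months. Its ages did not overlap in either region (log2 -0.77, adjusted p = 0.00500 in the restricted test and 0.179 over all genes). Cebpd, an inflammatory and glucocorticoid-responsive transcription factor gene, was at 49.9 and 64.6 CPM in hippocampus at 3 months, 27.7 and 40.9 there at 21 months, 46.4 and 50.2 in caudate putamen at 3 months and 8.56 and 0 at 21 months. It was lowest in the older caudate putamen, with no UMI in 1 library (log2 -1.90, adjusted p = 0.00500 in the restricted test and 0.0943 over all genes). Over 30 settings its log2 change ran from -4.26 to -1.64. The difference of Cebpd was larger in caudate putamen by value, which did not pass the test between regions (adjusted p = 0.665). Icam1, a leukocyte adhesion molecule gene, was at 97.5 and 48.4 CPM in hippocampus at 3 months, 13.9 and 5.84 there at 21 months, 16.4 and 22.8 in caudate putamen at 3 months and 10.7 and 5.69 at 21 months. The young hippocampal libraries were the highest (log2 -1.78, adjusted p = 0.0392 in the restricted test and 0.256 over all genes), and replicate 1 stood above replicate 2 there. Other genes lower in the restricted test were the immediate-early phosphatase gene Dusp1, the glucocorticoid-induced gene Tsc22d3 and the NF-kappa-B inhibitor gene Nfkbia. The heat-shock genes Hspa8, Hsp90ab1, Hspb1 and Dnaja1, the transporter gene Slco2b1 and the capillary gene Ivns1abp were also lower in it. All 48 genes kept their direction without any 1 library, except H2-Q7 as given. The number called was 13 to 64, lowest without caudate putamen 21 months replicate 1.

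**Figure D4:**
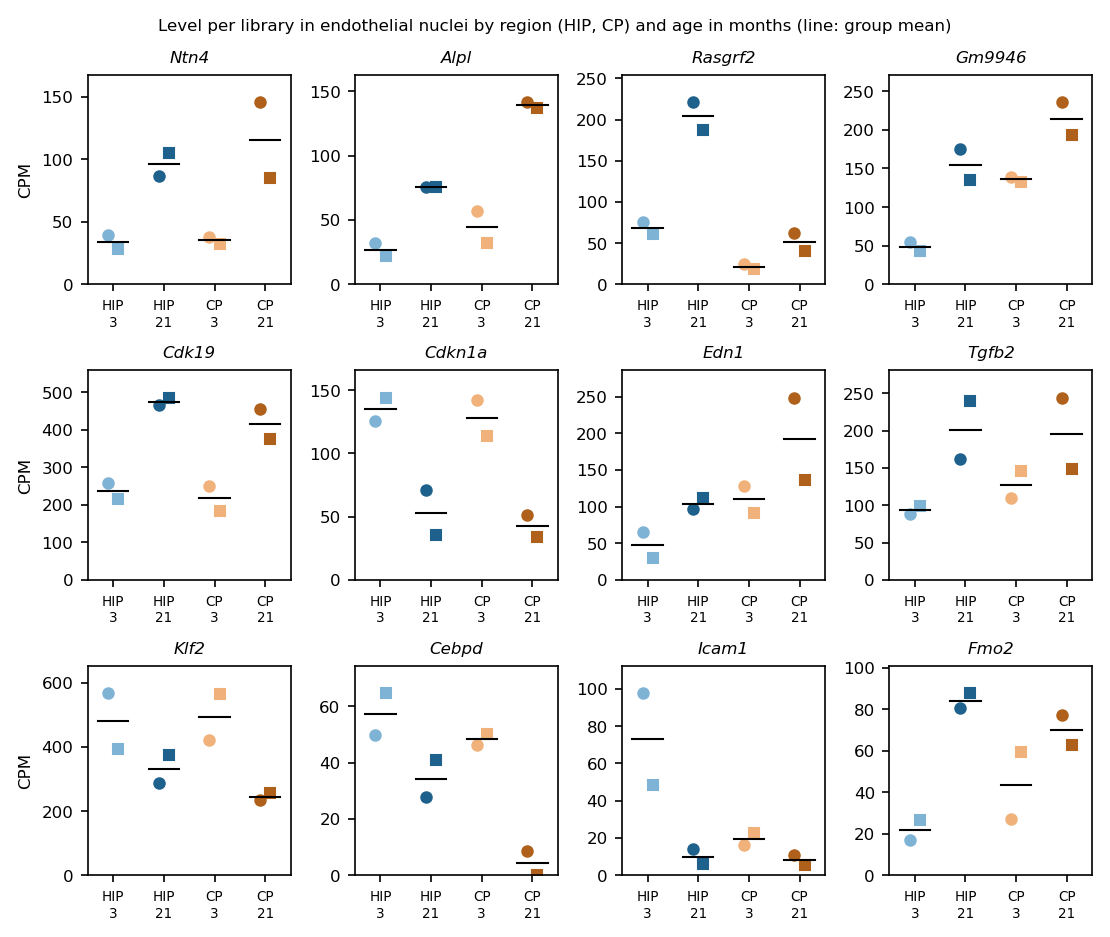
CPM in endothelial nuclei (y axis of each panel, from 0) for 12 genes in each library by region and age, with circles for replicate 1 and squares for replicate 2. Ntn4, Alpl, Rasgrf2, Gm9946 and Cdk19 lie higher at 21 months in both regions and Cdkn1a lies lower; Edn1, Tgfb2, Klf2, Cebpd, Icam1 and Fmo2 passed the restricted test alone.

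The gene lists of the barrier and the vessel wall held few called genes with age. Apart from Alpl, no gene of the 16 lists passed the test over all genes, which called 0.0724% of 8292. The median log2 change over all 8292 genes was 0.01. For the 17 barrier transporters the median was -0.28, with 3 above 0 and 14 below; 1 of them, Slco2b1, an organic anion transporter, passed the restricted test. Capillary genes had a median of -0.22 with 0 of 7 above 0, and venous genes a median of -0.33 over 9 tested. The medians were 0.09 for the 11 arterial genes tested and -0.11 for the 12 junction genes. The 21 MHC class I and interferon genes tested had a median of -0.04 and 0 calls over all genes, and the 19 Wnt and barrier-programme genes, among them Lef1, Apcdd1 and Foxq1, had -0.01. Of the 48 genes called in the restricted test (0.877% of those tested), 8 were on the lists. They were H2-Q6 and H2-Q7, each resting on 1 library as given above, Edn1 and Alpl, higher at 21 months, and Klf2, Ivns1abp, Icam1 and Slco2b1, lower. Summed arterial, capillary and venous genes differed between ages by 208, -575 and -208 CPM (21 minus 3 months; exact permutation p = 0.556, 0.278 and 0.444, each adjusted to 0.741). The arterial value was 17.6 without hippocampus 21 months replicate 2 and 398 without replicate 1 of that group, and the venous value -53.1 without caudate putamen 3 months replicate 2 and -363 without replicate 1 of that group. Without the nuclei that carried another class's markers the values were 501, -324 and -278 CPM. The rule genes are given as description: their median log2 change was -0.03.

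The signalling and structural lists showed how the vascular programmes were represented, given here as the range over the 8 libraries for members of highest level, none of which passed the test by age or region. In the Wnt list, whose pathway induces and maintains the barrier, the nuclear effector Lef1 was at 779.8 to 1460.2 CPM (other nuclei 13.5), the receptor Fzd6 at 239 to 325 CPM (other nuclei 5.72) and the target Apcdd1 at 233 to 356 CPM (other nuclei 10.5). Among transcription factors Fli1, of the ETS family, was at 662 to 1014 CPM (other nuclei 18.7), whereas Foxp1 at 1374 to 2106 CPM (other nuclei 1388) and Tcf4 at 1212 to 2085 CPM (other nuclei 1082) were shared with other cell types. Lef1 had changes of log2 0.07 by age and -0.07 by region and Fli1 of log2 -0.14 by age and -0.26 by region. Of the TGF-beta and BMP list, the receptor Bmpr2 was at 561 to 824 CPM (other nuclei 123) and the target Id1 at 376 to 611 CPM (other nuclei 3.74), with changes of log2 -0.19 by age and 0.03 by region for Id1. In the Notch list the junctional receptor Heg1 was at 859 to 1405 CPM (other nuclei 44.7), while Maml3, a coactivator, was higher in the other nuclei at 340.4 CPM against 95.5 to 211. Of the VEGF list, the co-receptor Nrp1 was at 237 to 432 CPM (other nuclei 176) and was the gene nearest to the threshold by region (log2 -0.53, adjusted p = 0.0717), and the sialomucin gene Cd34 was at 108 to 213 CPM (other nuclei 2.08). Transcytosis genes included the insulin receptor gene Insr, at 330.1 to 631 CPM (other nuclei 138) (log2 -0.51 by age, adjusted p = 0.368). Basement membrane contacts were represented by the integrin Itga1 at 339 to 622 CPM (other nuclei 8.28) and by the collagen gene Col4a2 at 192 to 293 CPM (other nuclei 33.4). Endothelial nitric oxide synthase (Nos3), the source of the vasodilator opposed to endothelin-1, was at 142 to 269 CPM (other nuclei 1.65), with changes of log2 0.21 by age and -0.44 by region. Interferon-responsive surface genes were high without a call: Ly6a was at 279 to 596 CPM (other nuclei 1.58) and Ly6e at 353 to 586 CPM (other nuclei 9.64), with changes by age of -0.04 and -0.20.

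In hippocampus alone, edgeR called 0 of 8292 genes with age (0% called; 387 at an unadjusted p under 0.05; DESeq2 called 0), and the restricted test called 17 (0.311%). Of these 17, 4 (Rasgrf2, Adamts9, Noct and Zbtb16) were above the other nuclei at 1 of the ages alone, so that their entry to the test was not independent of age. Without hippocampus 21 months replicate 2 the number called over all genes was 7, and without replicate 1 of that group it was 5. The naming rule gave, as values, Icam1 (log2 -2.59, SE 0.48, adjusted p = 0.000658 in the restricted test and 0.110 over all genes), Ankrd37 (log2 3.04, adjusted p = 0.00128 in the restricted test and 0.0596 over all genes), Fmo2 (log2 1.91, adjusted p = 0.00567 in the restricted test and 0.179 over all genes), Gm9946 (log2 1.68, adjusted p = 0.000292 in the restricted test and 0.0561 over all genes) and Rasgrf2 (log2 1.56, adjusted p = 0.0596 over all genes). No p of the restricted test is given for Rasgrf2 in hippocampus, since there it was above the other nuclei in the 21-month libraries alone. Vwf was at 139 and 99.8 CPM in hippocampus at 3 months, 258 and 286 there at 21 months, 73.6 and 173 in caudate putamen at 3 months and 98.5 and 79.7 at 21 months. Older hippocampal libraries were above young ones for Vwf (log2 1.14, adjusted p = 0.0406 in the restricted test and 0.502 over all genes), whereas the caudate putamen libraries overlapped.

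In caudate putamen alone, edgeR again called 0 of 8292 genes (0% called; 640 at an unadjusted p under 0.05; DESeq2 called 3, Adarb2, Nrg3 and Ppp2r2b, all higher at 21 months), and the restricted test called 18 (0.329%; 5 higher, 0.0914%, and 13 lower, 0.238%). Over all genes the number was 27 without caudate putamen 21 months replicate 1 and 22 without hippocampus 21 months replicate 2. The 5 higher were Ntn4, Alpl, Cdk19, the histone deacetylase gene Hdac9 and Rnf152, a ubiquitin ligase gene. Cdk19 and, among the lower ones, Ivns1abp were above the other nuclei at 1 of the ages alone here, so their calls in the restricted test are not independent of the filter. Sox18, a transcription factor gene of endothelial development, was at 55.6 and 55.8 CPM in hippocampus at 3 months, 76.7 and 99.3 there at 21 months, 136 and 105 in caudate putamen at 3 months and 34.3 and 5.69 at 21 months. It was low in both older caudate putamen libraries and not in the older hippocampal ones (log2 -2.23, SE 0.44, adjusted p = 0.0122 in the restricted test and 0.137 over all genes). The difference between regions was log2 -2.78 (adjusted p = 0.130). Over 18 settings the caudate putamen value ran from -4.29 to -1.53 and the difference from -4.85 to -2.16. Notum, which encodes a secreted Wnt-inactivating enzyme, was at 46.5 and 47.0 CPM in hippocampus at 3 months, 42.5 and 75.9 there at 21 months, 65.5 and 91.2 in caudate putamen at 3 months and 15.0 and 11.4 at 21 months. The older caudate putamen libraries were below the other 6 (log2 -2.40, adjusted p = 0.0313 in the restricted test and 0.159 over all genes). Transporters had a median log2 change of -0.62 here, with 16 of 17 below 0, 9 at an unadjusted p under 0.05 and 0 called, against 0.01 over all genes, of which 274 of 8292 were lower at an unadjusted p under 0.05. Several other lists had medians below 0 in the same contrast. The medians were -0.56 for capillary genes (7 of 7 below 0, 4 at an unadjusted p under 0.05) and -0.87 for venous genes (8 of 9 below 0). They were -0.44 for MHC class I and interferon genes (15 of 21 below 0), -0.26 for the markers outside the rule (14 of 16), -0.25 for junction genes (10 of 12) and -0.26 for the Wnt list (17 of 19). Nearer 0 were VEGF and angiopoietin genes at -0.14 (7 of 9 below 0) and Notch genes at -0.12 (5 of 9), and above it were arterial genes at 0.04 (5 of 11 below 0) and TGF-beta and BMP genes at 0.03 (6 of 13). Medians of the remaining lists were -0.40 for vascular tone and coagulation, -0.20 for transcription factors, -0.19 for transcytosis and -0.15 for basement membrane genes. In hippocampus the transporter median was 0.07, with 9 above and 8 below 0. Slc2a1, the glucose transporter GLUT1, was at 631 and 668 CPM in hippocampus at 3 months, 622 and 841 there at 21 months, 786 and 958 in caudate putamen at 3 months and 486 and 478 at 21 months. Both older caudate putamen libraries were the lowest of all 8 (caudate putamen log2 -0.79, SE 0.21, adjusted p = 0.278). Slc7a5, the large neutral amino acid transporter gene, was at 426 and 527 CPM in hippocampus at 3 months, 432 and 467 there at 21 months, 606 and 634 in caudate putamen at 3 months and 364 and 324 at 21 months. Again both were the lowest (caudate putamen log2 -0.78, adjusted p = 0.278). Atp10a, a lipid flippase gene, was at 892 and 1072 CPM in hippocampus at 3 months, 1041 and 1057 there at 21 months, 1408 and 1474 in caudate putamen at 3 months and 687 and 859 at 21 months. It passed the restricted test alone (caudate putamen log2 -0.84, adjusted p = 0.0492 in the restricted test and 0.201 over all genes). For these 3 transporters the hippocampal ages overlapped. The rule genes lay below 0 in the same contrast, from -0.40 to -0.13. Summed neuronal markers were higher in the older caudate putamen libraries (4274 and 8623 against 2988 and 4143 CPM), as were those of oligodendrocyte precursors (529 and 578 against 95.8 and 150 CPM). The part of such RNA in the values of these lists was not tested. Scaling on the restricted gene set moved the transporter median to -0.50, the capillary median to -0.44, the venous median to -0.78 and that of the MHC class I and interferon list to -0.35. It moved the medians of the markers outside the rule, junction genes and Wnt genes to -0.14, -0.11 and -0.14, and the rule genes then ran from -0.28 to -0.00187. The difference of the age effect between regions gave 1 call of 8292 (0.0121%), Ralyl, an RNA-binding protein gene of neurons that was lower in endothelial than in other nuclei. Without the nuclei that carried another class's markers the 1 call had the opposite direction, so the call of Ralyl was lost. Sox18 and the surface protein gene Ly6c1 (log2 -1.33, adjusted p = 0.319) did not pass.

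Between regions, 326 of 8292 genes differed in the nuclei chosen as endothelial (3.93%; 152 higher in caudate putamen, 1.83%, and 174 lower, 2.1%; edgeR's quasi-likelihood test, mean of both ages). The nuclei that carried another class's markers were picked without use of medium spiny or dentate granule neuron markers. Without those nuclei the number of genes was 253, of which 189 were higher in caudate putamen and 64 lower. Without 1 library it was lowest, 188, without caudate putamen 3 months replicate 1 and highest, 526, without hippocampus 21 months replicate 2. Most of these, 291 of the 326, were genes with a higher level in the other nuclei than in endothelial nuclei, compared in the region where the gene was higher. Penk, the proenkephalin gene of striatal medium spiny neurons, was at 2.27 and 1.47 CPM in hippocampus at 3 months, 0.924 and 0 there at 21 months, 175 and 297 in caudate putamen at 3 months and 169 and 188 at 21 months. The regions were fully apart (log2 7.07, SE 0.38, adjusted p = 1.49e-08). Penk was not among the 291, since its mean in caudate putamen was 207 CPM in endothelial and 185 CPM in other nuclei. The restricted test called it too, although in hippocampus its mean was 1.17 CPM in endothelial and 3.25 CPM in other nuclei. Penk was also measured in 2483 nuclei chosen by microglial markers, a comparison added after the calls had been seen. Those nuclei carried Penk at 173 to 329 CPM in caudate putamen, a range that overlaps that of the endothelial nuclei. Medium spiny neuron markers summed to 1170 to 2852 CPM in the caudate putamen endothelial nuclei against 141 to 310 in the hippocampal ones. Ckb, the brain creatine kinase gene, also overlapped, at 195 to 260.1 CPM in caudate putamen endothelial nuclei and 229 to 347 in the microglial-marker nuclei. It was not among the 291 either.

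Among genes at least as high in endothelial as in other nuclei, the restricted test called 41 between regions (0.749%; 17 higher in caudate putamen, 0.311%, and 24 lower, 0.439%), 33 of them also called over all genes. In 1 of the regions 15 of the 41 had a mean below that of the other nuclei, so their entry to the test was not independent of region. The number was 16 without caudate putamen 21 months replicate 1 and 78 without hippocampus 3 months replicate 2. Edn1 was the vascular-tone gene among them: its values, given above, were higher in caudate putamen at each age (log2 1.09, SE 0.26, adjusted p = 0.0302). It was at most 2.00 CPM in the microglial-marker nuclei. Tbx1 was at 49.9 and 36.7 CPM in hippocampus at 3 months, 63.8 and 64.3 there at 21 months, 87.3 and 132 in caudate putamen at 3 months and 139 and 91.1 at 21 months. The 4 caudate putamen libraries all lay above the 4 hippocampal ones (log2 1.09, SE 0.23, adjusted p = 0.0123), and the microglial-marker nuclei were at 0. Lower in caudate putamen was Fbln5, at 54.4 and 29.4 CPM in hippocampus at 3 months, 47.1 and 40.9 there at 21 months, 5.46 and 4.56 in caudate putamen at 3 months and 23.6 and 5.69 at 21 months. All 4 caudate putamen libraries were below all 4 hippocampal ones (log2 -2.18, SE 0.45, adjusted p = 0.00938). In caudate putamen 3 of the 4 libraries were below the other nuclei (5.46, 4.56 and 5.69 against 5.54, 7.28 and 7.31 CPM). With 366601, 219181 and 175687 endothelial UMIs in these libraries, the values rest on very few UMIs. Their order against the other nuclei is therefore uncertain. Fbln5 met the filter mainly through hippocampus. It was the 1 arterial gene of 11 tested that passed over all genes, a test without that filter. Mgp was at 79.4 and 27.9 CPM in hippocampus at 3 months, 61.0 and 40.9 there at 21 months, 32.7 and 22.8 in caudate putamen at 3 months and 17.1 and 5.69 at 21 months. It passed the restricted test only (adjusted p = 0.0489 in the restricted test and 0.0697 over all genes). Rasgrf2, whose values are given above, was 61.7 to 221 CPM in hippocampus and 18.2 to 62.1 in caudate putamen (log2 -1.80, SE 0.24, adjusted p = 0.000287), and at each age the regions did not overlap. The other nuclei, as given above, also held more of it in hippocampus. Efna5, an ephrin ligand gene, was at 178 and 99.8 CPM in hippocampus at 3 months, 251 and 222 there at 21 months, 84.6 and 68.4 in caudate putamen at 3 months and 87.8 and 51.2 at 21 months. The regions did not overlap (log2 -1.28, SE 0.23, adjusted p = 0.00300), and Efna5 was at 9.01 to 95.9 CPM in hippocampal microglial-marker nuclei. Its mean was 188 against 51.1 CPM in the other nuclei of hippocampus and 73.0 against 155 CPM in those of caudate putamen, where it was below them. Slc12a7, a potassium-chloride cotransporter gene, was at 34.0 and 23.5 CPM in hippocampus at 3 months, 49.0 and 17.5 there at 21 months, 13.6 and 9.12 in caudate putamen at 3 months and 8.56 and 0 at 21 months. The regions did not overlap for it either (log2 -2.00, SE 0.50, adjusted p = 0.0300), and its log2 difference ran from -4.40 to -1.39 over 29 settings. Also lower in caudate putamen was Stmn2, a microtubule regulator gene best known from neurons (log2 -1.37, SE 0.31, adjusted p = 0.0208; other nuclei 21.3 CPM, endothelial nuclei 80.5). For Vwf the hippocampal libraries were at 99.8 to 286 CPM and those of caudate putamen at 73.6 to 173 (log2 -0.81, adjusted p = 0.0463 in the restricted test and 0.0871 over all genes).

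**Figure D5:**
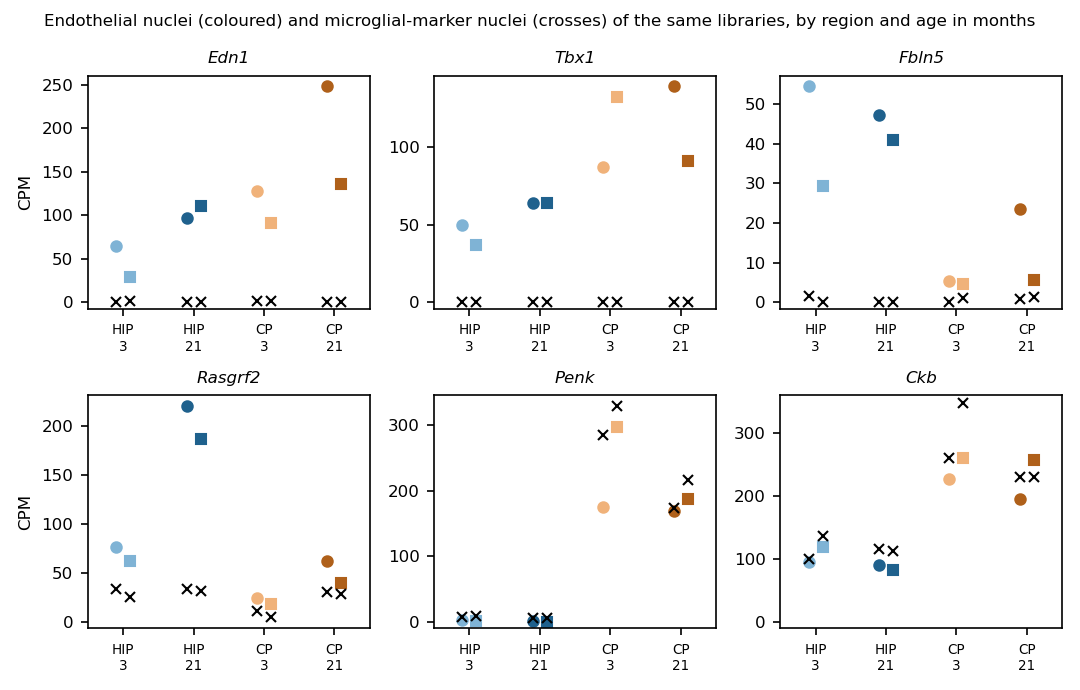
CPM (y axis of each panel) of 6 genes per library by region and age, in endothelial nuclei (coloured points) and in nuclei with microglial markers (crosses). Edn1, Tbx1 and Fbln5 are near 0 in the microglial-marker nuclei, whereas Penk and Ckb overlap there with the endothelial nuclei of the caudate putamen.

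No transporter, junction or Wnt gene on the lists passed the test between the regions, which called 3.93% of all genes tested. At that share, 0 calls in lists of 12 to 19 genes is not a result about those lists. Tcf7l2, a Wnt effector gene outside the list, was lower in caudate putamen, at log2 -1.37 to -0.42 over 30 settings, and passed in some of them. For the 17 transporters the median log2 difference was 0.04, against -0.02 over all genes. The 12 junction genes tested gave a median of 0.01, the 19 Wnt and barrier-programme genes 0.07 and the 14 basement membrane and integrin genes 0.03, each with 0 calls. Of the vascular tone and coagulation genes, Edn1 was the 1 of 7 tested that passed, and of the arterial genes Fbln5 was the 1 of 11. Venous genes had a median of -0.48 over 9 tested and 0 calls. Summed arterial, capillary and venous genes differed by -224, 51.0 and -334 CPM (caudate putamen minus hippocampus; exact permutation p = 0.556, 0.889 and 0.167; adjusted p = 0.741, 0.944 and 0.741 over 8 comparisons). Without the nuclei that carried another class's markers the values were -548, -480 and -485 CPM, so the capillary difference changed sign. The arterial difference ran from -414 to -33.6 CPM without replicate 1 or 2 of hippocampus at 21 months, and the venous one from -489 to -179 CPM without replicate 2 or 1 of caudate putamen at 3 months.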

How the data were processed

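Nuclei of 8 libraries were profiled by droplet single-nucleus RNA sequencing, and the authors deposited UMI counts per gene and barcode for 32285 genes. The submitters' processing notes name Cell Ranger 4.0.0 and mm10, whereas per the file headers 7 libraries carry version 6.1.2 and caudate putamen 3 months replicate 2 carries 7.0.0; whether intronic reads or strand were counted is not given in the sources used here. Total UMIs per library were 67205436 to 234811422. Per library, counts of the nuclei chosen by the rule were summed, and edgeR 4.0.16 (TMM scaling, filterByExpr, robust quasi-likelihood fit, 1 mean per group over all 8 libraries) tested age in both regions and each, the difference between regions in the age effect, and region, with Benjamini-Hochberg adjustment over 8292 genes and a threshold of 0.05. Fold changes are log2 values computed here from the deposited counts. Shares and list sums were tested by exact permutation within region or age. Named genes were the 10 of largest change per direction past the threshold, with no overlap between groups, at least 5 CPM and a level not below that of the other nuclei; where fewer than 5 passed, the 5 of smallest p with those limits; and from the lists each called gene and the 3 members of highest CPM. The cell rule, members and lists were chosen with earlier results of these data known. The restricted test leaves out genes higher in the other nuclei. Microglial-marker nuclei held at least 8 UMIs and 3 genes of that list and at most 1 UMI of the rule genes. The labels do not tie same-numbered libraries to each other, and not every pair of groups correlated over 0.1, so the replicate block was only an alternative. Only groups of the same age could share mice. The block, 1 replicate term over all groups, does not model that. Gene positions are from GENCODE (GRCm38), matched for 99.6% of gene IDs, and promoters from RefSeq; Ptprb and Cdh5 had no promoter entry. DESeq2 1.42.0, other scaling, filters, rule limits, equal nuclei and leaving out each library were the alternatives. The scripts were tested on simulated data. Intervals and floors cover counting error only.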

Additional observations from a re-analysis of the deposited data

Results flagged for a closer look

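Ralyl, which encodes an RNA-binding protein of neurons, was the gene whose change with age differed between the regions, by a test of the difference itself. Its levels in endothelial nuclei were 184 and 272 CPM in hippocampus at 3 months, 78.6 and 117 there at 21 months, 57.3 and 41.1 in caudate putamen at 3 months and 143 and 171 at 21 months. It was lower with age in hippocampus and higher in caudate putamen, and the age effects differed by 3.01 on the log2 scale (caudate putamen minus hippocampus; SE 0.45, adjusted p = 0.0390, edgeR). The other nuclei held 484 CPM on average, and the microglial-marker nuclei 46.2 to 142 CPM in hippocampus and 36.6 to 67.8 CPM in caudate putamen. The comparison gave 0 calls without caudate putamen 3 months replicate 1 or 2, caudate putamen 21 months replicate 2 or hippocampus 3 months replicate 2, 26 without caudate putamen 21 months replicate 1 and 51 without hippocampus 21 months replicate 2. It also gave 0 calls with DESeq2, with equal numbers of nuclei per library and with a limit of 12 rule-gene UMIs. Without the nuclei that carried another class's markers the 1 call was of the opposite direction, so the call of Ralyl was lost there too.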

How the results depend on the processing

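Counts of called genes depended on the setting more than directions did. For age over both regions, 6 calls became 0 with DESeq2, 0 with equal numbers of nuclei per library, 58 with no low-count filter, 31 without nuclei carrying another class's markers, 48 in the restricted test (12 with DESeq2 there, 46 without the mixed nuclei, 57 with the replicate block, 48 with RLE scaling; 13 to 64 without 1 library) and 0 to 17 without 1 library. In hippocampus 0 became 34 with no filter, 1 with a limit of 5 rule-gene UMIs, 12 without mixed nuclei, 17 in the restricted test and 0 to 7 without 1 library. In caudate putamen 0 became 3 with DESeq2, 154 with no filter, 7 without mixed nuclei, 18 in the restricted test and 0 to 27 without 1 library. For the difference between regions in the age effect, 1 became 0 with DESeq2, 145 with no filter, 0 with a limit of 12 UMIs, 0 with equal nuclei, 0 in the restricted test and 0 to 51 without 1 library; without mixed nuclei it was 1 of the opposite direction. For region, 326 (152 higher) became 253 (189 higher) without mixed nuclei, 726 with no filter, 49 with equal nuclei, 41 in the restricted test (13 with DESeq2, 32 without mixed nuclei, 68 with the replicate block, 42 with RLE; 16 to 78 without 1 library) and 188 to 526 without 1 library. The cause was not tested, beyond fewer samples or genes where those were left out. With the replicate block the calls were 16 for age, 6 in hippocampus, 40 in caudate putamen (0 without it), 15 for the difference and 531 for region. Same-numbered libraries correlated at -0.05 to 0.27, and not every pair was over 0.1. The labels do not say whether they share animals. Only groups of the same age could, and there the values were -0.000663 at 3 months and 0.2 at 21 months. The highest, 0.27, was between the ages of hippocampus, so these correlations do not settle whether animals were shared. The age difference in share changed sign without hippocampus 3 months replicate 2 (-0.213 points), hippocampus 21 months replicate 1 (-0.437), caudate putamen 3 months replicate 2 (-0.0199) or caudate putamen 21 months replicate 1 (-0.126), with a range of -0.437 to 0.596, and the region difference ran from -1.44 to -0.410. The capillary sum by region reversed without mixed nuclei (-480 CPM) and without hippocampus 3 months replicate 1 (-16.0) or caudate putamen 21 months replicate 1 (-2.85), within -16.0 to 118; by age it was -642 to -508. Arterial sums were 17.6 to 398 by age and -414 to -33.6 by region, and venous sums -363 to -53.1 and -489 to -179. Without mixed nuclei the arterial, capillary and venous sums were 501, -324 and -278 by age, and the arterial and venous sums -548 and -485 by region. H2-Q7 by age was -0.0819 without caudate putamen 21 months replicate 1, and -0.07 to 4.79 without 1 library in the restricted test. Depth was limited by hippocampus 21 months replicate 2, with 37 endothelial nuclei.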
